A study of Mus musculus with 2 samples.

Results

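A set of 10 genes known from alveolar macrophages was read in epithelial cells sorted from mouse lung. They are Chi3l3, Ear1, Ear2, Ear10, Marco, Mrc1, Ccl6, C1qb, Ctss and Tyrobp, 10 of the 22072 gene symbols in both expression tables, and all 10 were found, each as 1 transcript row. They were taken by symbol, and they had been chosen because of their values in these same libraries. Their difference between the libraries is therefore a description, and no test of it is given.

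The material was RNA from adult lung cells sorted as Lin-/CD326+/CD24-intermediate, a sort meant to enrich secretory airway epithelium without cilia. RNA of 4 mice was pooled for each of the 2 genotypes and made into 1 library, after 16 days of doxycycline food at 625 mg/kg. Control mice had the genotype tetOCre with floxed Mst1 and Mst2, so that Cre had no activator. The other mice carried Scgb1a1-rtTA as well, which drives Cre from the promoter of a club cell secretory protein when doxycycline is given. Both groups thus shared the floxed alleles, the Cre transgene and doxycycline, and they differed in the activator, in active Cre and in the intended deletion, which cannot be told apart. With 1 library per genotype and pooled mice, replicate error is unknown for every value and p-values cannot be had.

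Alveolar macrophages are the resident phagocytes of the air spaces. They take up surfactant, dust and microbes through scavenger and lectin receptors and break them down in lysosomes. They carry CD45, a leukocyte antigen that lineage depletion is commonly aimed at, and they are not epithelial. In mouse lung they are known for chitinase-like protein and eosinophil-associated ribonuclease transcripts at high levels.

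Several members have near-identical relatives, which bears on how their reads could be assigned, so their coding sequences are shown first. Ear1, Ear10 and Ear2 lie in that order on chromosome 14, at chr14:44396431-44397304, chr14:44500563-44501033 and chr14:44680319-44681196 in mm9, the build of the deposited tables. In GENCODE transcripts of the GRCm38 build, the coding sequences of Ear2 and Ear10 (468 bases each, without the stop codon) were 97.0% identical, and that of Ear1 (465 bases) was 95.1% identical to Ear2 and 94.4% to Ear10. Coding bases 181 to 300 are printed 5′ to 3′ along the mRNA, with capitals where a base differs from Ear1. They lie at chr14:43819110-43819229 (minus strand), chr14:44103067-44103186 (plus strand) and chr14:43923069-43923188 (minus strand) in GRCm38, all within coding exons.
Ear1: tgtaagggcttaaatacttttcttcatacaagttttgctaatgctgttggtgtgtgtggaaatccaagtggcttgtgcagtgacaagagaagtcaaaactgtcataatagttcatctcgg
Ear2: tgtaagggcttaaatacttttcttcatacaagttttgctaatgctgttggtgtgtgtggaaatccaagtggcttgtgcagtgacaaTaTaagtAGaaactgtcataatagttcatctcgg
Ear10: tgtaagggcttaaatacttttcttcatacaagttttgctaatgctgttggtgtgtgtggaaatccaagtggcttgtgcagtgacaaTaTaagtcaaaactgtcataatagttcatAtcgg

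In these 120 bases Ear2 differed from Ear1 at 4 positions and Ear10 at 3. Of all runs of 47 bases in the Ear2 coding sequence, 39.3% occurred unchanged in Ear10 and 18.7% in Ear1. A length of 47 bases is about that taken as 1 read, an assumption described with the processing. A read from such a run fits more than 1 gene, so the split among Ear1, Ear2 and Ear10 depends on how Cufflinks shared it.

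Chi3l3 has a similar relative in Chi3l4, which lies close to it on chromosome 3. Their coding sequences were 94.4% identical, with 22.5% of the 47-base runs of Chi3l3 also in Chi3l4. Coding bases 181 to 300 of both are printed, with capitals where Chi3l4 differs. In GRCm38 they span chr3:106161188-106164166 and chr3:106211299-106214351 on the minus strand, in more than 1 exon each.
Chi3l3: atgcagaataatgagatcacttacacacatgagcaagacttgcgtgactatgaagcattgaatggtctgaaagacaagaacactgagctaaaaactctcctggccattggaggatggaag
Chi3l4: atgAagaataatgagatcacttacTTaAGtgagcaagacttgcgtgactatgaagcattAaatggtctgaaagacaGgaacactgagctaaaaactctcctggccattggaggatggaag

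The 2 pools held about 8772000 and 8340000 reads on listed transcripts, a number inferred from the coverage column. Levels are given as FPKM, fragment numbers corrected for the length of the transcript and the size of the library. The deleted genes gave no clear check of the label: Stk4 (Mst1) had FPKM of 5.38 in the control pool and 4.71 in the other, and Stk3 (Mst2) had 7.28 and 7.09. The exons that Cre removes are not stated in the labels, so the second library is called the pool labelled Mst1/2-deleted. The 10 epithelial genes listed, among them Epcam (the CD326 gene, FPKM 28.2 and 31.0) and Cdh1, summed to FPKM of 513 and 524, and 0 of them differed by 1.5-fold. Scgb1a1 could not be measured: it was listed at 0 in both libraries, and its row did not carry a successful estimate in both.

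Every one of the 10 macrophage genes was lower in the pool labelled Mst1/2-deleted. Their FPKM summed to 64.1 in the control pool and 8.82 in the other, 7.27-fold lower (95% interval 6.34 to 8.34). Intervals here and below reflect counting alone and hold no variation among mice, sorts or preparations. Genes were counted as apart at 1.5-fold on the log2(FPKM + 1) scale if either pool had FPKM of at least 1. By that rule 8 members could be counted, and all 8 were lower, with 0 higher and a median log2 difference of -1.47. Of all 9945 genes that could be counted, 2.59% were lower and 3.02% higher, with a median of 0.07; among genes with control FPKM from 1 to 20 the lower share was 2.59%. Because the members were chosen on this contrast, nothing is read from their count. Marco and Mrc1 stayed under FPKM of 1 in both libraries and could not be counted. The cells that these RNAs came from were not measured. In bulk RNA, fewer macrophages, less of these RNAs per macrophage and a difference in RNA from other cells cannot be told apart.

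**Figure D1:**
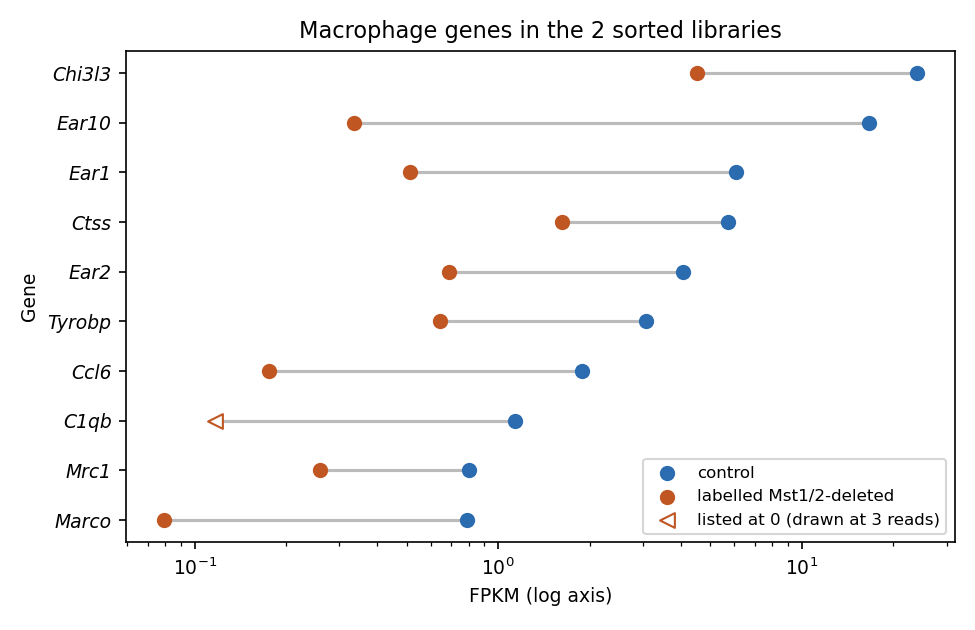
FPKM of each of the 10 macrophage genes (log axis) in the control pool (blue) and the pool labelled Mst1/2-deleted (orange), 1 library each, with a grey line joining the values of a gene. All 10 blue points lie to the right of the orange ones, and C1qb, listed at 0 in the second library, is drawn as an open triangle at the level of 3 reads.

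Chi3l3 was the most abundant member per length of transcript. It encodes Ym1, a secreted chitinase-like lectin stored and released by alveolar macrophages, and is now named Chil3 (chr3:105950472-105970482, mm9). Its FPKM was 24.0 in the control pool and 4.51 in the pool labelled Mst1/2-deleted, 5.32-fold lower (4.51 to 6.30). About 999 and 168 reads lay behind these values, the deepest support among the members. Chi3l3 ranked 697th by FPKM among all symbols in the control pool and 4452nd in the other. It made up 37.4% of the summed FPKM of the members in the first library and 51.1% in the second.

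The other chitinase-like genes did not share this difference as a family. Chi3l4, which encodes the sister protein Ym2, had FPKM of 0.789 and 0.303, 2.60-fold lower (1.28 to 5.72), and shares reads with Chi3l3. Chia, the acidic mammalian chitinase gene, lies beside Chi3l3 (chr3:105916300-105935034) and is known from lung epithelium. Chia had 102 and 141, and thus lay above the control value in the second library. Chi3l1 had 192 and 235. Of the 3 non-member genes of this family that could be counted, 0 were 1.5-fold lower.

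The Ear genes encode eosinophil-associated ribonucleases, secreted RNases of the RNase A superfamily. Ear10 had the largest fold of the members, with FPKM of 16.6 and 0.336, 49.5-fold lower (18.2 to 176). The second value rests on only about 4 reads (3.83), against 212 in the control pool, hence the wide interval. Ear1 had FPKM of 6.05 and 0.512, 11.8-fold lower (5.92 to 26.1). Ear2 had 4.06 and 0.687, 5.91-fold lower (3.19 to 11.9). Ear10 went from the second to the sixth place among the members.

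The Ear2 value depends on another row of the tables. Ear12 is listed at chr14:44680552-44681022, and all 471 bases of that row fall inside the Ear2 row. Ear12 had FPKM of 7.44 in the control pool and a value under 1 read in the other. Against a floor of 3 reads it was 28.3-fold lower, with an interval that starts at 22.6. Its estimate carries the status LOWDATA in both libraries. Summed with Ear12, Ear2 had FPKM of 11.5 and 0.687, 16.7-fold lower (9.29 to 30.1), against 5.91-fold alone. Reads of the 2 rows cannot be told apart by position, so the single value for Ear2 is uncertain. Ear1, Ear2 and Ear10 together had FPKM of 26.7 and 1.54, 17.4-fold lower (11.5 to 26.3). Their rows have lengths of 712, 716 and 471 bases, so that even this sum keeps some dependence on the split.

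Eosinophil granule genes were checked because of the name of the Ear family. Epx and Prg2, which encode the granule proteins eosinophil peroxidase and major basic protein, were both listed at 0 in the control pool, where Ear10 had FPKM of 16.6. In the pool labelled Mst1/2-deleted Prg2 had FPKM of 0.648 and Epx was again listed at 0. Of 12 genes listed for eosinophils, mast cells and basophils, 0 reached FPKM of 1, and the list summed to 0.363 and 1.12. The 17 other genes of the RNase A family in the tables went both ways. Of 3 counted, 1 was lower (Ear12, whose estimates the authors' tables mark as low data in both pools) and 1 higher (Rnase4, at 98.5 and 154). Ang, angiogenin, whose row overlaps that of Rnase4, had 11.6 and 13.9, a ratio of control over the other pool of 0.839 (0.713 to 1.01). Below the filter, Ang3 had 0.649 and was listed at 0, 3.65-fold lower against the floor of 3 reads (interval from 2.49).

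**Figure D2:**
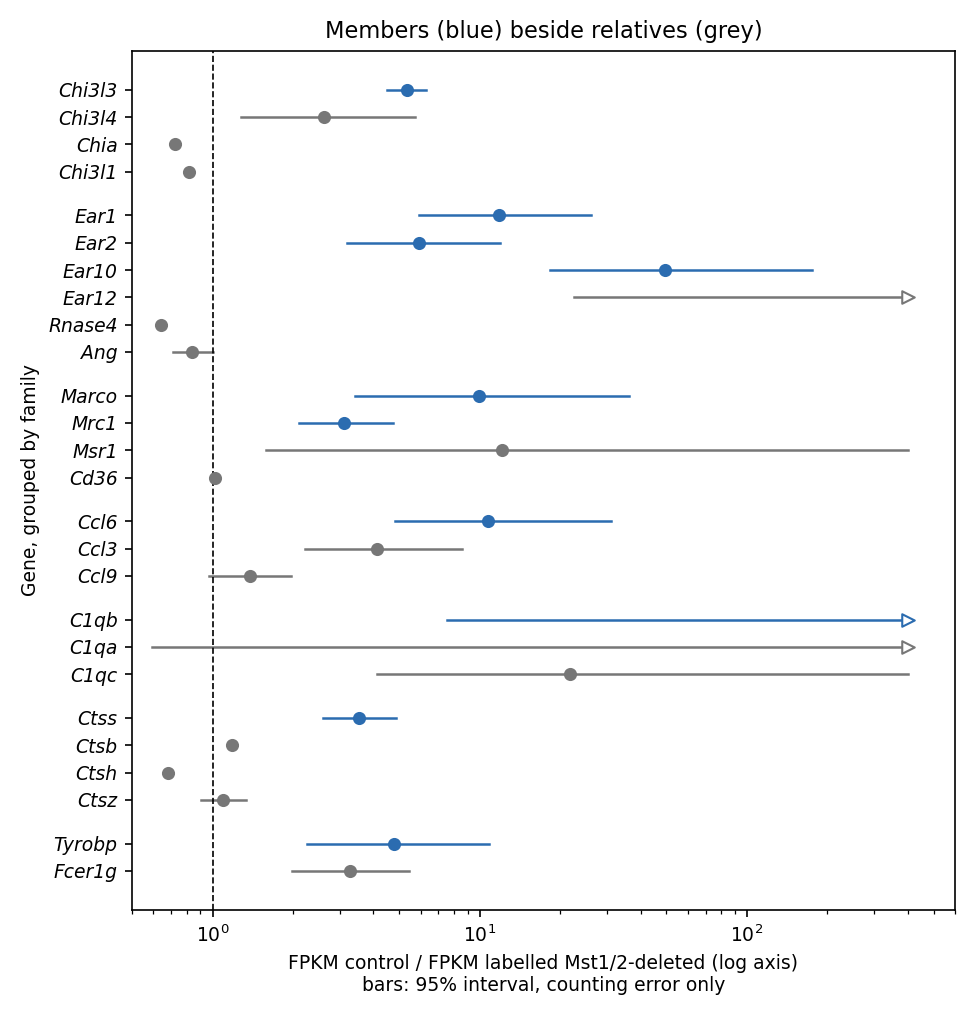
Ratio of control FPKM to FPKM in the pool labelled Mst1/2-deleted (log axis) for the 10 macrophage genes (blue) and relatives of each family (grey), with 95% intervals for counting error. Blue points lie from 3.10 for Mrc1 to 49.5 for Ear10, while Chia, Rnase4 and Ctsh lie under 1 (dashed line). Open triangles mark Ear12, C1qb and C1qa, whose reads in the second library round to 0, and bars stop at 400.

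Marco and Mrc1 are receptors that bind and take up particles. Marco encodes a collagen-like scavenger receptor for bacteria and dust (chr1:122371115-122401661), and Mrc1 encodes the mannose receptor CD206, a lectin (chr2:14151041-14253650). Marco had FPKM of 0.789 and 0.0792, 9.96-fold lower (3.41 to 36.1), with about 42.4 and 3.81 reads. Mrc1 had 0.799 and 0.258, 3.10-fold lower (2.10 to 4.74), the smallest fold of the 10. The control levels of these receptors were nearly equal per length. Of the 13 other scavenger and mannose receptors listed, 5 could be counted and 1 was lower: Olr1, the oxidized LDL receptor LOX-1, with 1.42 and 0.208. Msr1, scavenger receptor A, was at 0.126 and 0.0104, where the second value is about 1 read (0.914). Cd36, abundant in both libraries, had 128 and 125.

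Ccl6 encodes a CC chemokine that mouse macrophages make constitutively (chr11:83401388-83406589). It had FPKM of 1.89 and 0.176, 10.8-fold lower (4.83 to 31.0). Its neighbours on chromosome 11 had other ratios. Ccl9 (chr11:83386419-83392138) had 1.05 and 0.764, a ratio of 1.38 (0.970 to 1.96), Ccl3 had 2.62 and 0.635, 4.13-fold lower (2.21 to 8.56), and Ccl5 had 0.296 and 0.334. Among the 4 other CC chemokines that could be counted, 3 were 1.5-fold lower, against 2.59% of all genes counted. They were Ccl3, Ccl17 (2.66 and 0.201), a chemokine typical of dendritic cells, and Ccl27a, which had 2.48 in the control pool and is listed at 0 in the other because its estimate failed there, so that Ccl27a could not be compared. With successful estimates only, the count for the whole list went from 4 to 3.

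C1qb encodes the B chain of C1q, the recognition part of the first complement component (chr4:136436061-136442092). The A, B and C chains are encoded side by side and are made by macrophages. C1qb had FPKM of 1.13 in the control pool and was listed at 0 in the other. Against a floor of 3 reads it was 9.72-fold lower, with an interval that starts at 7.56. C1qc, not a member, had 0.983 and 0.0450, from about 28.1 and 1.15 reads, 21.9-fold lower with an interval that starts at 4.14. C1qa had 0.136 and was listed at 0, with about 4 reads (3.98) in the control pool. Among later components, C3, which airway epithelium also makes, had 95.7 and 37.7, 2.54-fold lower (2.45 to 2.62).

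Ctss, cathepsin S, is a lysosomal protease that trims the invariant chain of MHC class II in antigen-presenting cells (chr3:95330708-95360325). It had FPKM of 5.69 and 1.62, 3.52-fold lower (2.60 to 4.86). It was the only one of 13 cathepsin, legumain and cystatin genes counted that was 1.5-fold lower. Ctsc had 69.2 and 80.8, Ctsd 37.9 and 37.4, and Ctsz 6.15 and 5.61. Ctsh, which type 2 cells use to process surfactant proteins, had 112 and 164. MHC class II genes, also high in these epithelial pools, differed little: Cd74 had 1009 and 1163, and 0 of 7 were 1.5-fold apart.

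Tyrobp encodes DAP12, an ITAM adapter that passes on signals from activating receptors of myeloid and natural killer cells (chr7:31198807-31202598). It had FPKM of 3.07 and 0.644, 4.77-fold lower (2.26 to 10.8). Fcer1g, the Fc receptor gamma chain and a similar adapter, had 4.45 and 1.36, 3.28-fold lower (1.98 to 5.41). Of 11 genes in the list of DAP12 partners, 2 could be counted. They were Plxna1, a semaphorin receptor, at 4.77 and 6.26, and Fcer1g, which is itself an adapter and not a receptor that uses DAP12. Trem2, Trem3 and Clec5a, myeloid receptors that use DAP12, were listed at 0 in both pools, and Trem1 had 0.119 and 0.0110.

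The makeup of the summed FPKM of the members is given as a description. The Ear genes took 41.7% of it in the control pool and 17.4% in the other. Without them the remaining 7 members summed to 37.3 and 7.28, 5.13-fold lower (4.47 to 5.89). Ctss went from 8.88% of the sum to 18.3%.

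Genes of alveolar macrophages outside the 10 members were mostly too low for the FPKM filter. Of 22 such genes in the tables, 7 could be counted, 2 were lower (Car4, carbonic anhydrase 4, at 1.27 and 0.102, and Olr1) and 1 was higher (Lpl, lipoprotein lipase, at 4.10 and 6.90). Counted on the FPKM ratio at 2-fold, among genes with at least 10 reads over both libraries, 11 of 16 were lower and 0 higher, against 5.48% lower and 4.09% higher among all 14305 such genes. Itgax, the CD11c gene, had 0.682 and 0.0901, 7.57-fold lower (3.67 to 16.7). Abcg1, a cholesterol exporter, had 0.992 and 0.191, 5.20-fold lower (3.42 to 8.09), and Mertk, a receptor for apoptotic cells, 0.788 and 0.211. Siglec5, the older symbol of Siglecf and a surface marker of these macrophages, had 0.142 and 0.0132, from about 9.38 and 0.785 reads. Fabp4 had 0.576 and was listed at 0. Of the more abundant genes of the list, Pparg had 8.16 and 6.62, Cd68 4.90 and 3.54, and Atp6v0d2 2.26 and 3.23.

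**Figure D3:**
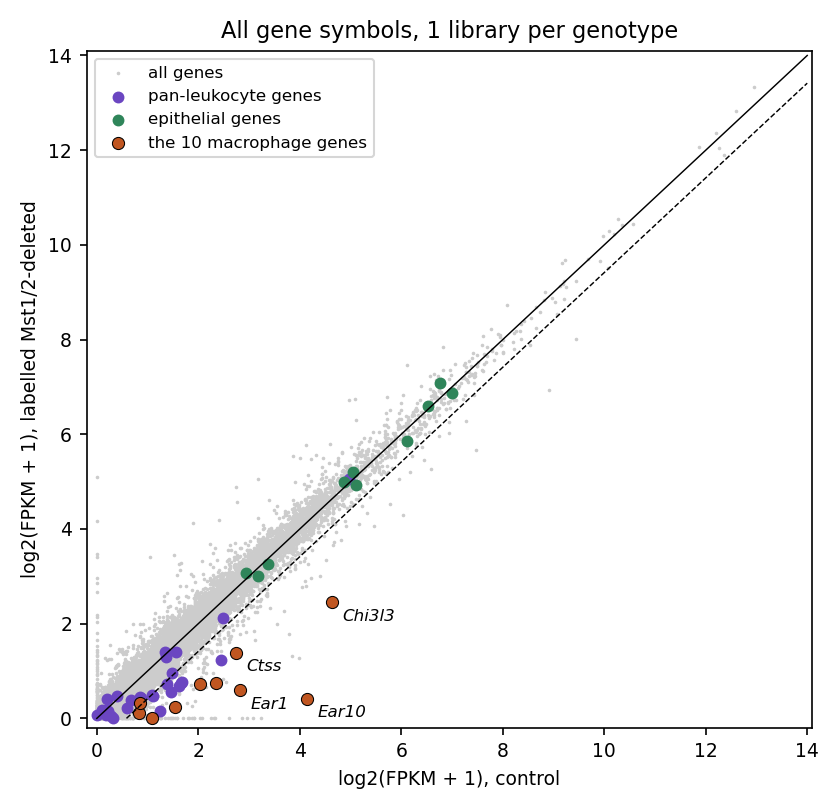
log2(FPKM + 1) of all gene symbols in the control pool (x axis) and the pool labelled Mst1/2-deleted (y axis), 1 point per gene, with the line of equality and a dashed line at 1.5-fold lower. The 10 macrophage genes (orange) lie under the line of equality, with Chi3l3 at the highest level among them, and epithelial genes (green) lie along it. Of the 15 counted pan-leukocyte genes (purple), 9 lie beyond the dashed line, against 2.59% of all counted genes. Most of those 9 had FPKM of at least 1 in the control pool only.

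Among monocyte and interstitial macrophage genes, both directions occurred at 1.5-fold. Of 6 counted, 2 were lower and 1 higher, with a median log2 difference of -0.02. Of all genes counted, 2.59% were lower and 3.02% higher. By the 2-fold FPKM ratio with at least 10 reads, 9 of 17 were lower and 0 higher, against 5.48% and 4.09% of all such genes. Cd14, the lipopolysaccharide coreceptor, was among the lower ones (21.9 and 9.13). The higher one was Ly6c2 (3.67 and 6.83), whose near-identical relative Ly6c1 had 13.9 and 17.2. Emr1, the F4/80 gene, had 0.337 and was listed at 0, at least 8.83-fold lower. Csf1r, the receptor of the macrophage growth factor CSF1, was also above its control value, at 0.984 and 1.80, 1.83-fold higher (1.43 to 2.36). C1qa and C1qc, which encode the partner chains of the member C1qb, were placed in this list.

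Of 15 pan-leukocyte genes counted, 9 were lower, 0 higher and 6 did not pass, with a median of -0.64. Of all genes counted, 2.59% were lower and 3.02% higher. Among the 9, only Fcer1g (4.45 and 1.36) reached FPKM of 1 in both pools. The rest passed the filter through the control pool alone, which favours lower genes. By the 2-fold FPKM ratio with at least 10 reads, 13 of 25 were lower and 2 higher, against 5.48% and 4.09% of all such genes. Ptprc, the CD45 gene, had FPKM of 0.519 and 0.172, 3.02-fold lower (1.82 to 4.81). Sfpi1, which encodes the myeloid transcription factor PU.1, had 1.13 and 0.409, 2.76-fold lower (1.48 to 5.74). Itgb2 (1.77 and 0.468), Cybb, the phagocyte oxidase subunit (2.20 and 0.705), and Alox5ap, of leukotriene synthesis (1.36 and 0.111), were among the lower ones. The 6 others were Lcp1 (30.3 and 32.5), Ncf1 (4.59 and 3.32), Csf2ra (1.97 and 1.64), Cd52 (1.81 and 0.945), Cytip (1.54 and 1.64) and Ptpn6 (1.58 and 1.44). Lcp1 stood far above every other gene of the list in both libraries.

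Lists of other leukocytes held few genes above the filter. Of 14 neutrophil genes named, 12 were in the tables and 2 could be counted. One of these, Ltf, lactoferrin, which airway glands also secrete, was lower at 8.31 and 4.16; Mmp8, Camp and Elane were listed at 0 in both libraries. Among 16 T and NK cell genes 1 could be counted, Cd247, at 2.96 and 3.50. Of the dendritic cell list 1 gene was counted, Ccl17, and it was lower. By the 2-fold FPKM ratio with at least 10 reads, 3 of 9 T and NK cell genes were lower. The same held for 2 of 5 neutrophil genes and 3 of 6 dendritic cell genes, and in these 3 lists 0 were higher. Among all such genes 5.48% were lower and 4.09% higher. The B cell list went the other way, with 3 genes counted, 0 lower and 1 higher, and by the ratio 0 of 5 lower and 3 higher. In these 8 leukocyte lists together, members left out, 35 of 134 genes could be counted, 15 of them lower and 3 higher. Of all genes counted, 2.59% were lower and 3.02% higher. By the 2-fold ratio, 41 of 85 genes of these lists were lower and 6 higher. The lists were chosen with earlier results of these data known, so these counts are a description. The mesenchymal list summed to 20.1 and 8.91, mostly through Dcn (11.9 and 3.79); 2 of 4 counted were lower, Col1a1 had 0.824 and 0.828, and Acta2 had 0.291 and 0.604. The endothelial list summed to 12.3 and 7.47, mostly through Kdr (9.05 and 5.11), the only gene counted; of its 10 genes 6 were below and 4 above their control value. Of 9 club cell genes counted 4 were lower, while alveolar type 2 genes summed to 18614 and 22679 with 0 of 11 lower by 1.5-fold. Whether these shifts in other cell types have a part in the difference of the macrophage genes was not tested.

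**Figure D4:**
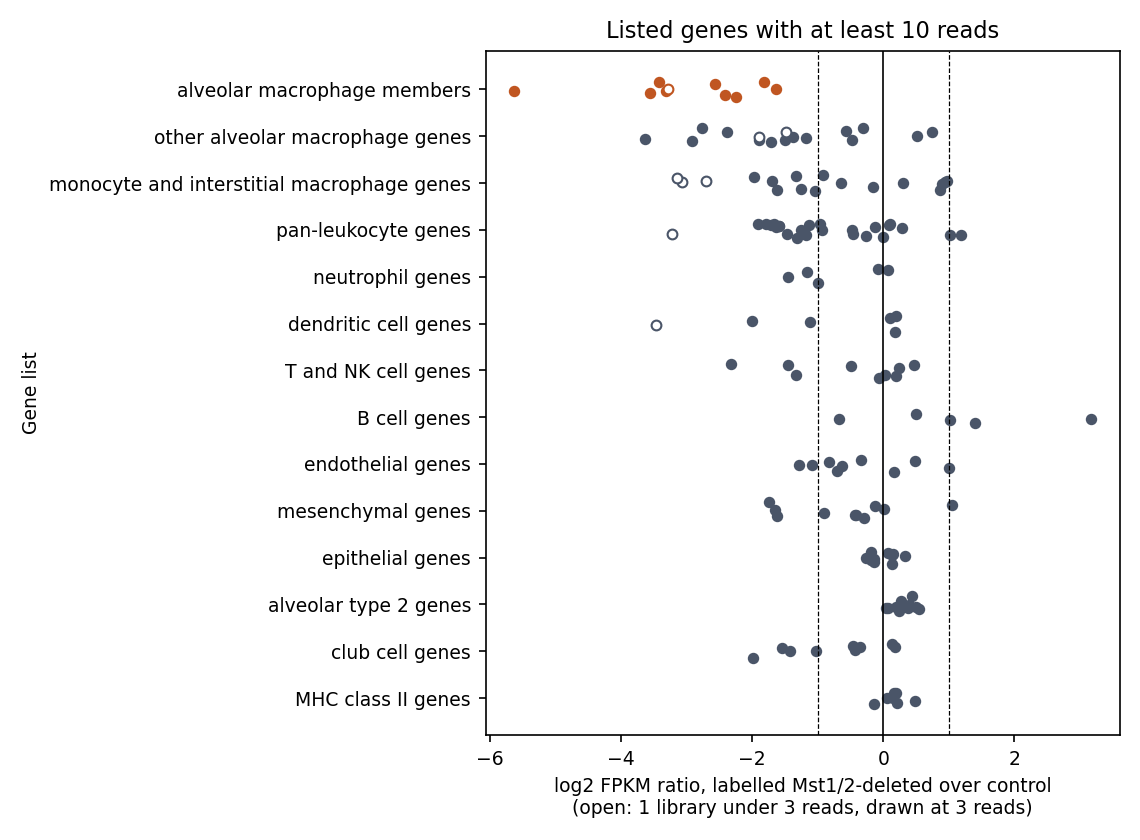
log2 ratio of FPKM in the pool labelled Mst1/2-deleted over control, 1 row of points per gene list, with dashed lines at 2-fold. Genes with at least 10 reads over both libraries are shown, and some of the lists are not drawn. The 10 macrophage genes (orange) all lie left of the 2-fold line, as do 11 of 16 other alveolar macrophage genes, whereas epithelial and MHC class II genes lie close to 0; open points had under 3 reads in 1 library and are drawn at 3 reads.

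With 2 libraries, likeness to the members reduces to the ratio alone. Of 7205 genes with control FPKM of at least 2, a value above 0 in both libraries, transcripts of at least 300 bases and successful estimates, the 15 with the largest control excess included 4 members: Ear10, Ear1, Ear2 and Chi3l3. In 4 of the 15 the second value rests on under 3 reads, so their order carries no weight. Btg3 and Akr1b3 had FPKM of 2.76 and 6.77 in the control pool and values under 1 read in the other. They were 30.9-fold and 76.6-fold lower against the floor of 3 reads, with intervals that start at 24.8 and 61.9. Others were Ccl17, Il1a, the interleukin 1 alpha gene (2.80 and 0.284), Saa3, an acute-phase serum amyloid (2.42 and 0.251), and Il1f9, an epithelial interleukin 1 relative (8.996-fold lower). The rest were Gdpd2 (14.7 and 1.43), Gm11428 (2.09 and 0.235), Upk3b, a uroplakin of mesothelium (3.47 and 0.575), Slc7a11, the cystine transporter (4.57 and 0.771), and Ces1f (12.8 and 2.42).

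The promoters of the members were searched for GAGGAA, the core bound by PU.1, on both strands, in the 250 bases before the start in RefSeq sequences of GRCm38.p6. Windows were found for 9 of 10 members, not for Tyrobp. GAGGAA occurred in 4 of the 9, and in 23.3% of 32851 windows of the same length. The longer form GAGGAAGT, which contains the shorter one, occurred in 0 of 9 and in 2.44% of all windows. For the 4 members with a match, 66 bases around the match nearest to the start are printed on the strand of the gene, with the match in capitals (TTCCTC is GAGGAA on the other strand). They lie at chr1:120505135-120505200, chr2:14229348-14229413, chr4:136886201-136886266 and chr3:95526592-95526657.
Marco: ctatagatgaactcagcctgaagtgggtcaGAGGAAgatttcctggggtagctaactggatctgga
Mrc1: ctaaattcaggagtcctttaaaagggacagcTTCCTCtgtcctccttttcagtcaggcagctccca
C1qb: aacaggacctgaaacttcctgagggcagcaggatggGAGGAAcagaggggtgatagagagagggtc
Ctss: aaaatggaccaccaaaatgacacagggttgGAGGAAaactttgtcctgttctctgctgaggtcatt

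The match began 146 bases before the start in Marco, 35 in Mrc1, 30 in C1qb and 164 in Ctss. The windows of Chi3l3, Ccl6 and the 3 Ear genes held no match. The Ear windows were themselves near copies, with Ear1 and Ear2 identical at 99.2% of 248 aligned bases and Ear1 and Ear10 at 93.9% of 247. A match is a run of letters and says nothing of binding, and binding was not measured.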

How the data were processed

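The members and the gene lists were chosen with earlier results of these data known. RNA-seq was deposited as 1 table per library, each from pooled RNA of 4 mice. The build was mm9 and the tools named are TopHat and Cufflinks, per the submitters' processing notes, in versions not given in the sources used here; this also holds for read length and strandedness. The authors deposited FPKM per RefSeq transcript and, per the file headers, coverage, a signal of mean read depth. FPKM was summed per symbol (28107 rows, 22072 symbols). Differences are log2((FPKM + 1) labelled Mst1/2-deleted over (FPKM + 1) control); the pseudocount understates those of low genes. Starts were raised by 1 to count from 1.

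Reads were approximated as coverage times length over 47.1 bases, the median of values between 25 and 75 bases in single-transcript rows, an assumption. Rounded, they gave exact (Clopper-Pearson) 95% intervals of ratios, scaled by the depth ratio of 0.895. Intervals of sums used a normal approximation on the log scale. Intervals were tested on simulated reads, which cannot check the assumed read size or how reads were shared among near-identical genes. Amplified reads are also not independent molecules. Genes whose reads rounded to 0 in the pool labelled Mst1/2-deleted were set against a floor of 3 reads. That fold ignores the counting error of the control value, so the start of the interval is given beside it. Named were all members, the listed genes that are defining, at least 1.5-fold apart or listed at 0, and the 15 genes with the largest control excess; other listed genes are named for comparison after their values were seen. Lists numbered 24. Coding sequences came from GENCODE M21 and promoters from RefSeq, both GRCm38. Python 3.11.15, pandas 2.3.3, scipy 1.17.1 and Biopython 1.88 were used. Some listed genes are not reported here.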

Additional observations from a re-analysis of the deposited data

How the results depend on the processing

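No paired analysis was possible because each genotype has 1 library, and for the same reason no replicate could be left out. The summed FPKM of the 10 members was 0.138 of control; it was 0.195 without Ear1, Ear2 and Ear10, 0.107 without Chi3l3 and 0.179 without Ear10, choices added after the data were seen. Ear2 moved from 0.169 to 0.0598 of control with Ear12 added. With the filter at FPKM of 5, fewer genes could be counted, with 4 members, 104 of all genes and 2 genes of the leukocyte lists 1.5-fold lower, in place of 8, 258 and 15. TPM values are larger than FPKM in these tables, so that the same filter and pseudocount weigh less, and 1237 of all genes and 46 of the leukocyte lists were lower. A pseudocount of 0.1 gave 476 of all genes and no pseudocount 509. The FPKM ratio of 2 with 10 reads, also added later, gave 784 of 14305 genes, 41 of 85 genes of the leukocyte lists and all 10 members. The number of genes that can be counted differs among these settings, so the counts are not shares of 1 total. No member changed direction under any setting tried, but these settings could hardly have changed it. Each member is 1 row with a successful estimate, and a filter or pseudocount does not turn a difference around. TPM and centring on the median of all genes scale the ratios of all members alike. Low depth limits C1qb, Marco, Ear10 and Ccl6, which rest on fewer than 10 reads in the pool labelled Mst1/2-deleted, as do Ear1 and Tyrobp.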

Other observations

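A gene of antibody-secreting cells ran opposite to the macrophage genes. Igj, the joining chain of IgA and IgM, had FPKM of 1.06 in the control pool and 9.58 in the pool labelled Mst1/2-deleted, from about 60.6 and 488 reads. Cd79a, of the B cell receptor, had 0.527 and 1.06, and Cd79b had 1.93 and 2.73. Ms4a1, which encodes the B cell surface protein CD20, had 0.107 and 0.0469. Of 6 platelet genes only 1 could be counted, Pf4, at 1.03 and 0.852, and 0 of 7 erythroid genes reached FPKM of 1. Leukocyte genes in these sorted pools therefore did not all lie in 1 direction. No difference in this section has a replicate check.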
